A study of Mus musculus with 9 samples.

Results

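The matrix metalloproteinases and their tissue inhibitors were followed here in the lungs of mice given an adenovirus. The genes were Mmp2, Mmp3, Mmp8, Mmp9, Mmp12, Mmp14, Mmp19, Timp1, Timp2 and Timp3. They were read by the probe sets to which the platform annotation gave that symbol alone, which were 23 of the 45101 probe sets on the array, for 10 of 18194 genes named in this way. The mice were female C57BL/6, 14 weeks old, and each had received a replication-deficient adenovirus through the trachea 14 days before the lungs were taken. There were 3 mice in each of 3 groups. In the AdV-IL4 group the virus carried mouse interleukin-4 (IL-4), in the AdV-IL4d2 group it carried IL-4d2, a splice variant of that cytokine, and in the AdV-NULL group, the control, it carried no cytokine gene. All 9 mice thus carried virus, and no uninfected lung is among the groups. RNA of the whole homogenised lung of each mouse was hybridised to 1 Affymetrix array, so that the cells which made a transcript are not known, and fewer cells of a type cannot be told apart from less RNA per cell. The viral dose is not given in the labels.

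Matrix metalloproteinases are zinc-dependent endopeptidases that cut the proteins of the extracellular matrix. Most are secreted as inactive proenzymes, and the membrane-bound members, such as the product of Mmp14, act at the cell surface. The tissue inhibitors, TIMPs, bind the active site and block it. In the lung this balance is best known for the turnover of elastin and collagen, and macrophage elastase, the product of Mmp12, is the family member most closely tied to emphysema in mice exposed to smoke. IL-4 is a type 2 cytokine that drives alternative activation of macrophages.

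Signals below are the deposited values on a linear scale, in arbitrary units that are not comparable between probe sets. Comparing 1 probe set between arrays assumes the deposited scale, on which every array had the same trimmed mean. Scales set from spiked-in controls differed from it, as given further down. Differences were tested with limma on log2(signal + 16), for probe sets whose signal exceeded the array median on 3 or more of the 9 arrays, with p-values adjusted by the Benjamini-Hochberg method over all 23824 such probe sets. A probe set was called at an adjusted p under 0.05. Of the 23 probe sets, 19 were tested, for 9 of the 10 genes. The other 4 lay below the median of every array, among them the only Mmp8 probe set.

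The arrays differed in other ways that ran with the groups. The Il4 probe set averaged 338 ± 39.1 in AdV-IL4, 872 ± 343 in AdV-IL4d2 and 43.5 ± 27.9 in AdV-NULL lungs (SD, n = 3 each) and was called higher with either cytokine virus than with AdV-NULL. Which part of the transcript it reads is not known, so it cannot tell the transgenes from the mouse gene or IL-4 from IL-4d2. The summed signal of 10 striated muscle markers ran from 1875 to 7530 in AdV-IL4, 6358 to 21547 in AdV-IL4d2 and 15860 to 83298 in AdV-NULL lungs, with AdV-IL4 mouse 2 lowest and AdV-NULL mouse 1 highest. The ratio of the 3′ to the 5′ Gapdh control probe set, which follows RNA quality and labelling, was 1.54 to 1.80 in AdV-IL4, 1.35 to 1.57 in AdV-IL4d2 and 0.955 to 1.45 in AdV-NULL lungs. The same ratio for Actb was 2.79 to 3.75 in AdV-IL4, 2.34 to 2.79 in AdV-IL4d2 and 2.28 to 2.88 in AdV-NULL lungs, so that its groups overlapped. The part of RNA quality in the results below was not tested, and calls that ended without those 2 mice, or for the members with the muscle markers as a covariate, are given with the results.

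With AdV-IL4, 4 metalloproteinase genes were higher than with AdV-NULL and no inhibitor was called, with signals as deposited. Mmp12 stood out with an 18.8-fold difference, followed by Mmp19 at 2.79-fold, while Mmp2 and Mmp14 differed by 1.61-fold to 1.68-fold. In counts, 6 of the 19 tested probe sets were higher and 0 lower in AdV-IL4, at a background of 10.7% of all tested probe sets called in this comparison (5.6% higher and 5.08% lower). By the brightest tested probe set of each gene, 4 of 9 genes were called, against 13% of 11984 genes. The AdV-IL4 lungs all lay above the AdV-NULL lungs for 6 of the 19 and all below for 5, against 14.5% and 14.7% of all tested probe sets. Before adjustment, 12 of the 19 probe sets had p under 0.05. No share over all tested probe sets or genes is given for unadjusted p-values. Counts at that threshold, here and below, therefore have no background and are not read as a result about the members or lists. The median log2 difference over the 19 was -0.08, and over all tested probe sets it was -0.0036. These counts depend on which members passed the filter on low signals, and Mmp19 passed through its AdV-IL4 arrays alone. They also rest on the scale: with arrays scaled to hybridisation controls 2 of the 19 were higher and 8 lower in AdV-IL4 than in AdV-NULL lungs, and with poly-A controls 2 were higher and 12 lower, as set out further down. Of all 23824 tested probe sets, 295 were higher and 7156 lower on the first of these scales. On the second, 152 were higher and 17971 lower.

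**Figure D1:**
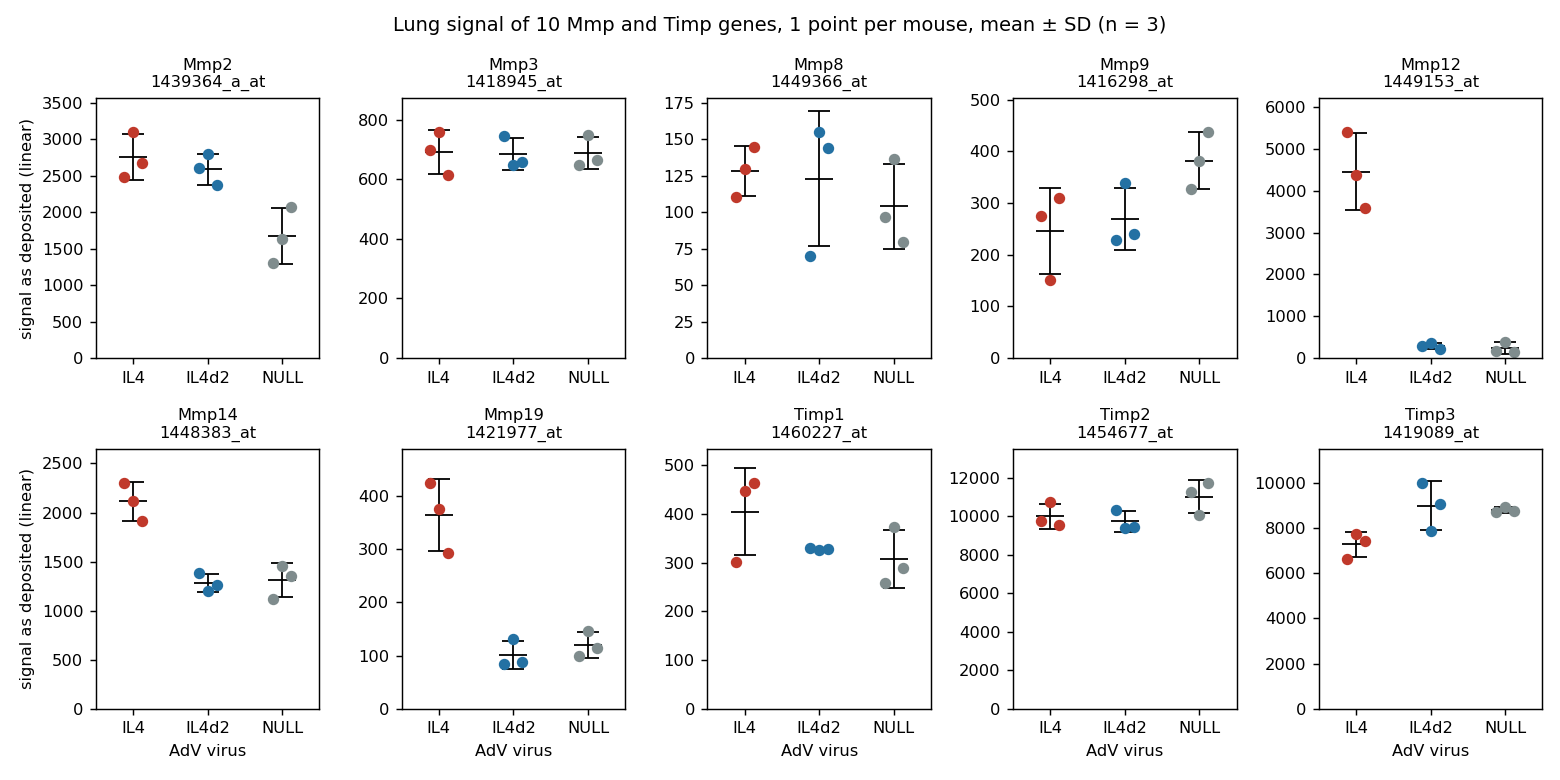
Deposited signal (vertical axis, linear units starting at 0, with a scale of its own in each panel) of the brightest probe set of each of the 10 genes in AdV-IL4 (IL4), AdV-IL4d2 (IL4d2) and AdV-NULL (NULL) lungs, 1 point per mouse, with bars for the mean ± SD of 3 mice. For Mmp12, Mmp14 and Mmp19 the AdV-IL4 points lie above all others, whereas Mmp2 is high with both cytokine viruses, and the Mmp3 groups overlap.

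Mmp12, on chromosome 9, encodes macrophage elastase, which cuts elastin. The promoter window of 1 of its 2 annotated starts, the further downstream, is shown beside those of Mmp3 and Mmp8. Both are members of the same gene cluster on chromosome 9. Mmp3 was tested and not called, whereas Mmp8 lay below the median of every array and was not tested in the main fit. Each sequence holds the 250 bases before an annotated start in RefSeq (GRCm38.p6, plus strand), 5′ to 3′, with capitals for matches to TGANTCA, the letters bound by AP-1 (Fos and Jun) factors.
Mmp12, chr9:7347124-7347373: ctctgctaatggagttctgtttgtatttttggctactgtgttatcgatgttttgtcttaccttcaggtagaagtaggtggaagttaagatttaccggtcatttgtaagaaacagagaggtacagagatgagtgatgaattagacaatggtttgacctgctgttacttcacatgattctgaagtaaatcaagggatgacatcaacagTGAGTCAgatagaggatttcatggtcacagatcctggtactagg
Mmp3, chr9:7445572-7445821: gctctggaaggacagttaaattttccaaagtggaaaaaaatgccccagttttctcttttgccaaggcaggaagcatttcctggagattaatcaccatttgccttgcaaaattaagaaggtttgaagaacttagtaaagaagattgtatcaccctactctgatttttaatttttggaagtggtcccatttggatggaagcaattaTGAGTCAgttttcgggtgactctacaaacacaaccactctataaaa
Mmp8, chr9:7558179-7558428: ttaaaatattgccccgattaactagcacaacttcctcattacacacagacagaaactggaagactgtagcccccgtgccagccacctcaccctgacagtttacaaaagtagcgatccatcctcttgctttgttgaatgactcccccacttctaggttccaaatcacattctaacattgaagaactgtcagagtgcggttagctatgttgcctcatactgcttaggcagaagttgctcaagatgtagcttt
The Mmp12 window shown belongs to the further downstream of its 2 annotated starts. Its match begins 44 bases before that start, and the Mmp3 match begins 46 bases before its own. Neither the Mmp8 window nor the other Mmp12 window held these letters. That other window lies at the first annotated start of Mmp12 and is not printed. Both strands were searched in 8 windows of 7 of the 10 genes, and 2 windows held TGANTCA, against 6.75% of 32851 RefSeq promoter windows of the same length. A match describes the letters only.

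Mmp12 had signals of 5404, 4386 and 3583 in the 3 AdV-IL4 lungs, 291, 356 and 217 in AdV-IL4d2 lungs, and 174, 395 and 150 in AdV-NULL lungs. Every AdV-IL4 lung lay far above every lung of the other groups, which overlapped each other. The log2 difference between AdV-IL4 and AdV-NULL was 4.23 ± 0.29 (SE, limma adjusted p = 8.50e-06), which placed Mmp12 5th by increase among 11984 genes. Against AdV-IL4d2 the log2 difference was 3.89 ± 0.29 (limma adjusted p = 0.000123), a 14.8-fold difference and 3rd among the same genes. AdV-IL4d2 and AdV-NULL lungs did not differ beyond their spread, with a log2 difference of 0.34 (95% interval -0.29 to 0.98, limma adjusted p = 0.648). Leaving out each array in turn gave 3.98 to 4.63 for AdV-IL4 against AdV-NULL, called in 9 of 9 fits. With the muscle markers as a covariate Mmp12 was the 1 member probe set still called in that comparison.

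Macrophage markers are given beside Mmp12. Of 11 such markers, all tested, 5 were higher and 1 lower in AdV-IL4 than in AdV-NULL lungs, where 13% of all tested genes were called. Between AdV-IL4 and AdV-IL4d2, where Mmp12 also differed, 2 were higher and 1 lower, at a background of 2.24% of genes. Itgax, the integrin chain CD11c, averaged 3157 ± 324 in AdV-IL4 and 1050 ± 218 in AdV-NULL lungs, a log2 difference of 1.59 ± 0.15 (limma adjusted p = 0.000103). Cd68, a lysosomal macrophage glycoprotein, differed by 1.20 ± 0.23 on the log2 scale (limma adjusted p = 0.00761). Marco, a scavenger receptor of alveolar macrophages, was lower, with 58.4 ± 33.2 in AdV-IL4 and 397 ± 61.0 in AdV-NULL lungs (limma adjusted p = 0.000226). The summed signal of the 11 markers was 54095 to 59753 in AdV-IL4, 45769 to 52070 in AdV-IL4d2 and 41675 to 55652 in AdV-NULL lungs. Without AdV-NULL mouse 1 and AdV-IL4 mouse 2, 2 of the 11 were higher and 1 lower in AdV-IL4 than in AdV-NULL lungs. In that fit 575 of all 23824 tested probe sets were higher and 493 lower. The part of macrophage number in the Mmp12 result was not tested.

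Itgax was also the gene whose log2 signals followed those of Mmp12 most closely over the 9 arrays, with Pearson's r of 0.989. It was followed by Slc5a1, a sodium-glucose transporter, at 0.985, Ptgir, the prostacyclin receptor, at 0.984, and by Psap, the precursor of the lysosomal saposins, and Clec4a3, a C-type lectin of myeloid cells, both at 0.976. All 5 had their highest mean in AdV-IL4 lungs, as with Psap at 23599 in AdV-IL4, 11926 in AdV-IL4d2 and 10569 in AdV-NULL lungs. These correlations are a description of 9 arrays that fall into the same 3 groups.

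The other genes of the Mmp12 cluster were set beside it in their order along chromosome 9, which in RefSeq is Mmp13, Mmp12, Mmp1b, Mmp3, Mmp1a, Mmp10, the long noncoding RNA Gm31751, Mmp8, Mmp27 and Mmp20. Of these 9 metalloproteinase genes 8 had a probe set, and only Mmp12 and Mmp3 passed the filter. Mmp13, collagenase 3 and the neighbour of Mmp12, had signals of 345, 232 and 118 in AdV-IL4, 72.7, 81.2 and 97.6 in AdV-IL4d2, and 40.5, 89.0 and 62.9 in AdV-NULL lungs. All 3 AdV-IL4 lungs lay above the other 6, although only 2 of them exceeded the array median. Fitted without the filter, Mmp13 differed by 1.56 on the log2 scale between AdV-IL4 and AdV-NULL (limma adjusted p = 0.0413) and by 1.20 between AdV-IL4 and AdV-IL4d2 (limma adjusted p = 0.222). Mmp1b, Mmp1a, Mmp10, Mmp8 and Mmp20 lay below the median of each of the 9 arrays, and none was called in the fit without the filter, where their adjusted p-values for AdV-IL4 against AdV-NULL ran from 0.313 to 0.795.

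**Figure D2:**
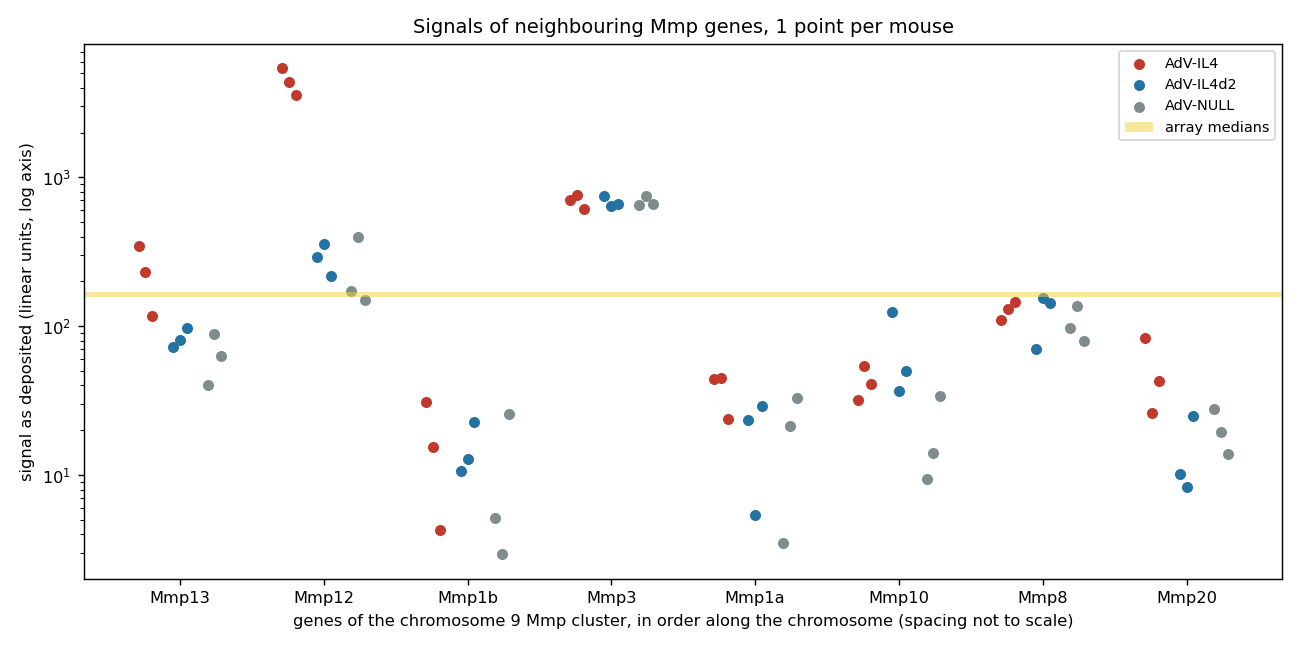
Deposited signal (vertical axis, linear units on a log axis) of 8 genes of the chromosome 9 cluster in their order along the chromosome (horizontal axis, spacing not to scale), 1 point per mouse, with AdV-IL4, AdV-IL4d2 and AdV-NULL side by side, and a band for the range of the 9 array medians. AdV-IL4 lungs lie apart for Mmp12 and, at low signals, for Mmp13, whereas the Mmp3 points of all groups lie between 613 and 759.

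Mmp3, stromelysin 1, which can activate other proenzymes, gave signals of 699, 759 and 613 in AdV-IL4, 745, 647 and 657 in AdV-IL4d2, and 649, 749 and 664 in AdV-NULL lungs. The groups overlapped throughout. The log2 difference between AdV-IL4 and AdV-NULL was 0.0035 with a 95% interval of -0.25 to 0.25. Mmp8, neutrophil collagenase, gave 110, 130 and 145 in AdV-IL4, 69.9, 155 and 144 in AdV-IL4d2, and 96.7, 137 and 79.6 in AdV-NULL lungs. Its groups overlapped at signals below the array median, and the fit without the filter gave a log2 difference of 0.28 for AdV-IL4 against AdV-NULL (95% interval -0.42 to 0.98).

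Mmp19, on chromosome 10, encodes a metalloproteinase that cuts basement membrane components. Its brighter probe set had signals of 425, 375 and 292 in AdV-IL4, 83.3, 131 and 88.3 in AdV-IL4d2, and 99.6, 146 and 114 in AdV-NULL lungs. The AdV-IL4 lungs lay above all others, and only they exceeded the array median, which means the probe set was tested because of the group in which it was high. The log2 difference was 1.48 ± 0.24 against AdV-NULL (limma adjusted p = 0.00285) and 1.71 ± 0.24 against AdV-IL4d2 (3.26-fold, limma adjusted p = 0.00471), which placed it 18th by increase among all genes. AdV-IL4d2 and AdV-NULL lungs overlapped, at a log2 difference of -0.22 (95% interval -0.75 to 0.30). The second Mmp19 probe set lay below the median of each array, with 112, 67.9 and 20.6 in AdV-IL4, 34.5, 77.0 and 13.2 in AdV-IL4d2, and 35.1, 19.1 and 19.1 in AdV-NULL lungs, and its groups overlapped. With the muscle markers as a covariate the difference from AdV-NULL was 1.13 (limma adjusted p = 0.204).

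Mmp14, on chromosome 14, encodes membrane type 1 metalloproteinase, which activates the Mmp2 proenzyme at the cell surface together with Timp2. The brightest of its 3 probe sets had signals of 2306, 2119 and 1913 in AdV-IL4, 1379, 1202 and 1264 in AdV-IL4d2, and 1116, 1456 and 1355 in AdV-NULL lungs. AdV-IL4 lungs lay above all others, and the other groups overlapped. The log2 difference was 0.69 ± 0.11 against AdV-NULL (1.61-fold, limma adjusted p = 0.00317) and 0.71 ± 0.11 against AdV-IL4d2 (1.64-fold, limma adjusted p = 0.00938). AdV-IL4d2 against AdV-NULL gave -0.023 (95% interval -0.27 to 0.22). Without AdV-IL4d2 mouse 3 the difference from AdV-IL4d2 was 0.70 and no longer called (limma adjusted p = 0.0518), and with the muscle covariate the difference from AdV-NULL was 0.55 and not called (limma adjusted p = 0.194).

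The second Mmp14 probe set had signals of 360, 322 and 364 in AdV-IL4, 323, 232 and 258 in AdV-IL4d2, and 178, 231 and 219 in AdV-NULL lungs. AdV-IL4 lungs had the highest mean again and lay above all AdV-NULL lungs, but overlapped AdV-IL4d2 lungs narrowly. The difference from AdV-NULL was 0.70 ± 0.17 on the log2 scale (limma adjusted p = 0.0203) and lost its call without AdV-NULL mouse 1, AdV-IL4 mouse 1 or AdV-IL4 mouse 3 (limma adjusted p = 0.0807, 0.0562 and 0.0615). It was not called either without both AdV-NULL mouse 1 and AdV-IL4 mouse 2 (0.65, limma adjusted p = 0.0991) or with the muscle covariate (0.70, limma adjusted p = 0.291). The third, dim probe set, above the array median on 3 of 9 arrays, had 86.9, 217 and 138 in AdV-IL4, 125, 62.8 and 150 in AdV-IL4d2, and 116, 177 and 183 in AdV-NULL lungs. It did not share the difference, with a log2 value of -0.15 ± 0.36 against AdV-NULL (limma adjusted p = 0.838).

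Mmp2, on chromosome 8, encodes gelatinase A, which degrades denatured collagen and type IV collagen. It was the member that was higher with IL-4d2 as well, by 1 of its 2 probe sets. Its first probe set had signals of 2479, 3100 and 2678 in AdV-IL4, 2602, 2792 and 2366 in AdV-IL4d2, and 1310, 1634 and 2073 in AdV-NULL lungs. The second had 1579, 1911 and 2102 in AdV-IL4, 1738, 1912 and 1965 in AdV-IL4d2, and 994, 1107 and 1191 in AdV-NULL lungs. For both probe sets the cytokine groups overlapped each other and lay above all AdV-NULL lungs.

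The log2 difference of Mmp2 between AdV-IL4 and AdV-NULL was 0.73 ± 0.15 (limma adjusted p = 0.00897) by the first probe set and 0.75 ± 0.12 (limma adjusted p = 0.00209) by the second. Between AdV-IL4d2 and AdV-NULL it was 0.65 ± 0.15 (limma adjusted p = 0.0555), not called, and 0.76 ± 0.12 (limma adjusted p = 0.00528), called. These comparisons share the AdV-NULL arrays. Set against each other, AdV-IL4 and AdV-IL4d2 lungs differed by 0.086 (95% interval -0.23 to 0.41) and -0.014 (95% interval -0.26 to 0.24), which does not show that the cytokine forms act alike. Without AdV-NULL mouse 1 and AdV-IL4 mouse 2, the first probe set gave 0.48 for AdV-IL4 against AdV-NULL (limma adjusted p = 0.0708), and with the muscle covariate it gave 0.23 (limma adjusted p = 0.534). With that covariate the second probe set was called in neither comparison, at 0.57 for AdV-IL4 against AdV-NULL (limma adjusted p = 0.173) and 0.65 for AdV-IL4d2 against AdV-NULL (limma adjusted p = 0.0665).

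Mmp9, on chromosome 2, encodes gelatinase B, which neutrophils store in granules. Its brighter probe set had signals of 276, 151 and 310 in AdV-IL4, 229, 338 and 240 in AdV-IL4d2, and 327, 381 and 438 in AdV-NULL lungs. All AdV-IL4 lungs lay below all AdV-NULL lungs, as those of 14.7% of all tested probe sets did, and the log2 difference of -0.65 ± 0.24 was not called (limma adjusted p = 0.111). AdV-IL4d2 and AdV-NULL lungs overlapped, at -0.49 ± 0.24 (limma adjusted p = 0.386). The dim second probe set reached 128 in AdV-NULL mouse 2 and lay between 3.94 and 48.1 in the other 8 lungs.

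Neutrophil markers are given beside Mmp8 and Mmp9. Of 4 tested markers 0 were higher and 2 lower in AdV-IL4 than in AdV-NULL lungs. These were S100a8 and S100a9, the calgranulin subunits, with log2 differences of -1.97 ± 0.41 (limma adjusted p = 0.0115) and -2.32 ± 0.36 (limma adjusted p = 0.00208). Of all tested genes 13% were called in this comparison. Between AdV-IL4 and AdV-IL4d2, 0 of the 4 were higher and 2 lower, at a background of 2.24% of genes. Mmp9 gave -0.16 ± 0.24 there (limma adjusted p = 0.791). Without AdV-NULL mouse 1 and AdV-IL4 mouse 2, 2 were lower in each of these comparisons, against 493 and 109 of all 23824 tested probe sets. The summed signal of the 4 tested markers was 2410 to 6379 in AdV-IL4, 5041 to 11704 in AdV-IL4d2 and 5274 to 10683 in AdV-NULL lungs. Cxcr2, Mpo and Camp lay below the median of each array. The part of neutrophil number in the Mmp8 and Mmp9 values was not tested.

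**Figure D3:**
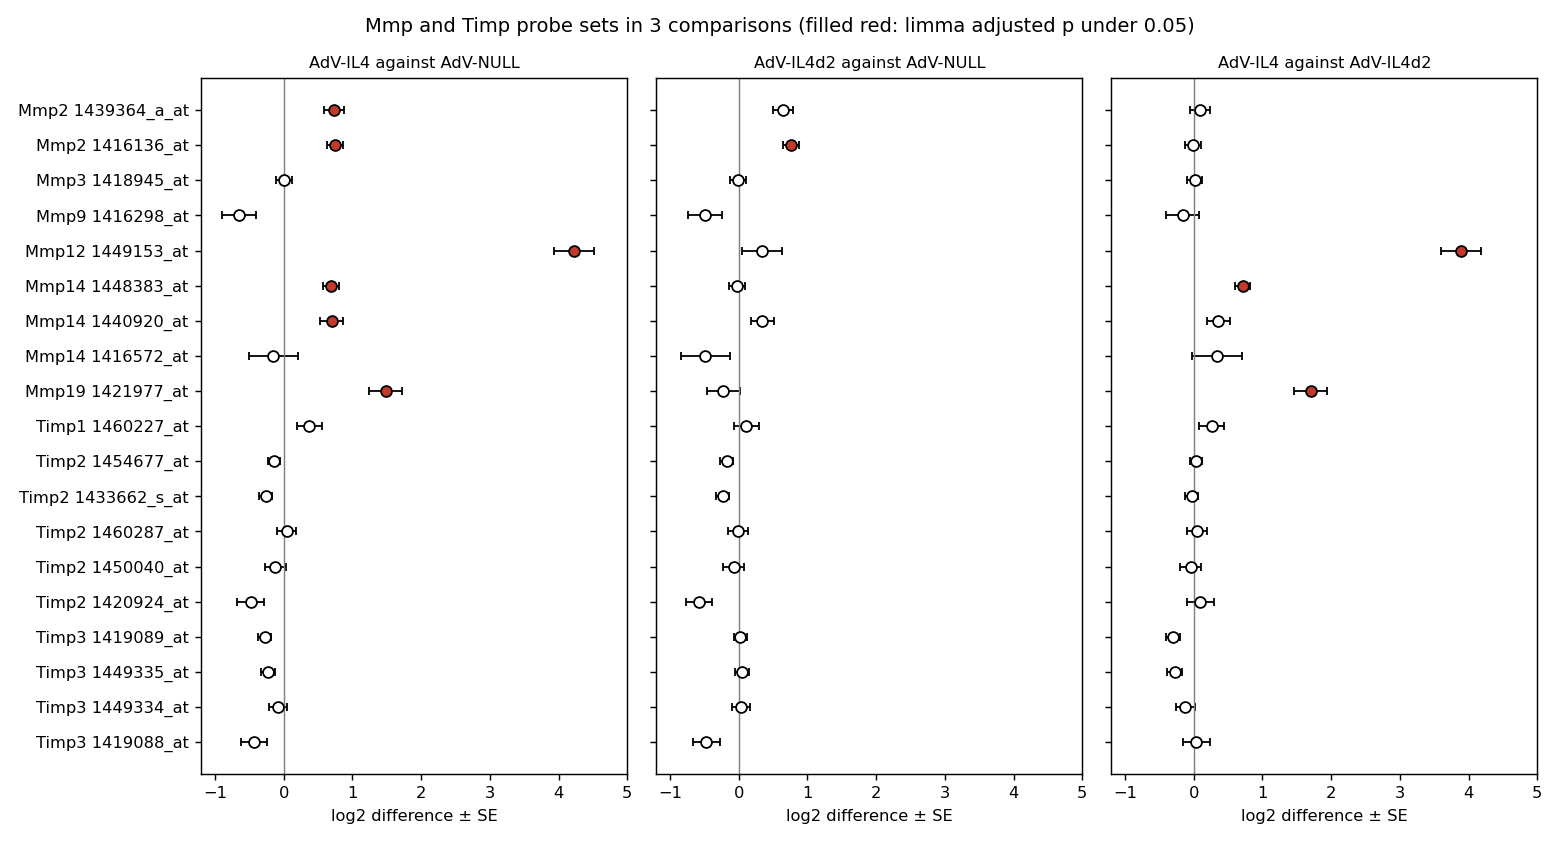
Log2 difference ± SE (horizontal axis) of the 19 tested probe sets (vertical axis) for AdV-IL4 against AdV-NULL, AdV-IL4d2 against AdV-NULL and AdV-IL4 against AdV-IL4d2. Filled points are called, 6, 1 and 3 of 19 in the 3 panels, and Mmp12 lies farthest to the right in the panels that hold AdV-IL4 against another group.

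No inhibitor probe set was called in any of the 3 comparisons on the deposited scale. Most were called lower with AdV-IL4 when arrays were scaled to spiked-in controls, which lowered the median probe set as well. These values are given with the other settings below. Timp1, on the X chromosome, is the inducible member of the inhibitor family, and its signals were 301, 448 and 464 in AdV-IL4, 330, 326 and 328 in AdV-IL4d2, and 258, 373 and 290 in AdV-NULL lungs. AdV-IL4 mice 2 and 3 lay above all others, and AdV-IL4 mouse 1 lay among the control values. The log2 difference between AdV-IL4 and AdV-NULL was 0.37 ± 0.18 (95% interval -0.022 to 0.77, limma adjusted p = 0.218). The genes most like Timp1 over the 9 arrays were Cd274, the checkpoint ligand PD-L1, with Pearson's r of 0.961, Ctse, cathepsin E, at 0.928, Loxl1, a lysyl oxidase that crosslinks elastin, at 0.926, Trim21 at 0.914 and Eif5a at 0.912.

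Timp2, on chromosome 11, had 5 tested probe sets, with log2 differences of -0.48 to 0.041 between AdV-IL4 and AdV-NULL and none called (limma adjusted p from 0.101 to 0.893). The brightest had signals of 9735, 10740 and 9527 in AdV-IL4, 10356, 9402 and 9455 in AdV-IL4d2, and 11261, 10075 and 11760 in AdV-NULL lungs, with overlapping groups. The dimmest tested probe set was even among AdV-NULL lungs, at 424, 426 and 436, and lower in all others, at 223, 358 and 346 in AdV-IL4 and 228, 277 and 354 in AdV-IL4d2. Its log2 differences from AdV-NULL were -0.48 ± 0.19 with AdV-IL4 (limma adjusted p = 0.141) and -0.58 ± 0.19 with AdV-IL4d2 (limma adjusted p = 0.191). A sixth Timp2 probe set had signals under 10 on every array.

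Timp3, on chromosome 10, encodes the inhibitor that stays bound to the matrix and also blocks ADAM proteases. Its brightest probe set had signals of 6634, 7736 and 7431 in AdV-IL4, 10001, 7876 and 9072 in AdV-IL4d2, and 8683, 8939 and 8744 in AdV-NULL lungs. Each AdV-IL4 lung lay below each lung of the other groups, by a narrow margin. The log2 difference was -0.28 ± 0.10 against AdV-NULL (limma adjusted p = 0.0910) and -0.30 ± 0.10 against AdV-IL4d2 (limma adjusted p = 0.146), and after quantile normalization the first was -0.34 and called (limma adjusted p = 0.0417). The other 3 Timp3 probe sets gave -0.43 to -0.085 for AdV-IL4 against AdV-NULL and were not called.

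With AdV-IL4d2, 1 of the 19 probe sets, the second of Mmp2, was called against AdV-NULL, at a background of 1.32% of tested probe sets (0.928% higher and 0.39% lower). Before adjustment 5 had p under 0.05, a count without a background share. By the brightest probe set of each gene, 0 of 9 genes were called by limma, 1 had an unadjusted p under 0.05, and the background was 1.26% of genes. AdV-IL4d2 lungs all lay above AdV-NULL lungs for 3 of the 19 and all below for 1, against 10.6% and 10.7% of all tested probe sets. The median log2 difference was -0.0090 over the 19 probe sets and -0.0035 over all tested probe sets. Mmp12, Mmp14 and Mmp19, the 3 genes other than Mmp2 that were higher with AdV-IL4, had log2 differences of 0.34, -0.023 and -0.22 with AdV-IL4d2.

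Compared directly, AdV-IL4 exceeded AdV-IL4d2 lungs for 3 of 19 probe sets, those of Mmp12 and Mmp19 and the brightest of Mmp14, and 0 were lower, at a background of 1.75% called (0.911% higher and 0.835% lower). The groups did not overlap for 3 higher and 2 lower probe sets of the 19, against 11% each of all tested probe sets. The median was 0.040 over the 19 and -0.0029 over all. By genes 3 of 9 were called, against 2.24%. These counts include Mmp19, which passed the filter on low signals through its AdV-IL4 arrays alone. The Il4 probe set had its higher mean in AdV-IL4d2 lungs, with a log2 difference of -1.25 ± 0.35 for AdV-IL4 minus AdV-IL4d2 that was not called (limma adjusted p = 0.104). Since the probe set may not read both forms alike, this value does not compare the amounts of the transgenes.

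The called differences were read again under 21 other settings of the analysis, and 2 of these set the scale from spiked-in control RNA. Scaling to hybridisation controls shifted the median of all tested probe sets by -0.44 on the log2 scale between AdV-IL4 and AdV-NULL, and scaling to poly-A controls by -0.77. On the poly-A scale Mmp12 remained higher by 3.45 and Mmp19 by 0.74, whereas Mmp2 gave -0.061 and -0.039 and Mmp14 -0.10 and -0.051. Relative to the shifted median, the Mmp2 values were 0.71 and 0.73 and the Mmp14 values 0.67 and 0.72. The direction of Mmp2 and Mmp14 therefore holds relative to the typical probe set and not on the poly-A scale. On the hybridisation scale Mmp2 gave 0.29 and 0.31 and Mmp14 0.24 and 0.28, none called (limma adjusted p from 0.253 to 0.371).

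On these scales the median probe set was lower in AdV-IL4 lungs, and so were the inhibitors. On the poly-A scale all 5 tested Timp2 and all 4 Timp3 probe sets were called lower in AdV-IL4 than in AdV-NULL lungs, by log2 values of -1.23 to -0.75 (limma adjusted p from 3.14e-05 to 0.00334) beside the shift of -0.77 in the median probe set. Of all 23824 tested probe sets, 17971 were called lower in the same comparison on the poly-A scale. Relative to the shifted median, the Timp2 values were -0.46 to 0.015 and the Timp3 values -0.40 to -0.10. On the hybridisation scale 4 Timp2 and 3 Timp3 probe sets were called lower, against 7156 of all 23824. Timp1 was called on neither scale in that comparison, at -0.38 and -0.052. Mmp9 was called lower on both, at -1.39 on the poly-A scale and -1.07 on the hybridisation scale. Between AdV-IL4 and AdV-IL4d2, 2 member probe sets were higher and 15 lower on the poly-A scale, against 33 and 22470 of all tested probe sets. On the hybridisation scale 2 were higher and 10 lower, against 89 and 11074 of all. The brightest Mmp14 probe set gave -0.36 and 0.18 on these scales in that comparison, neither called (limma adjusted p = 0.152 and 0.455).

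**Figure D4:**
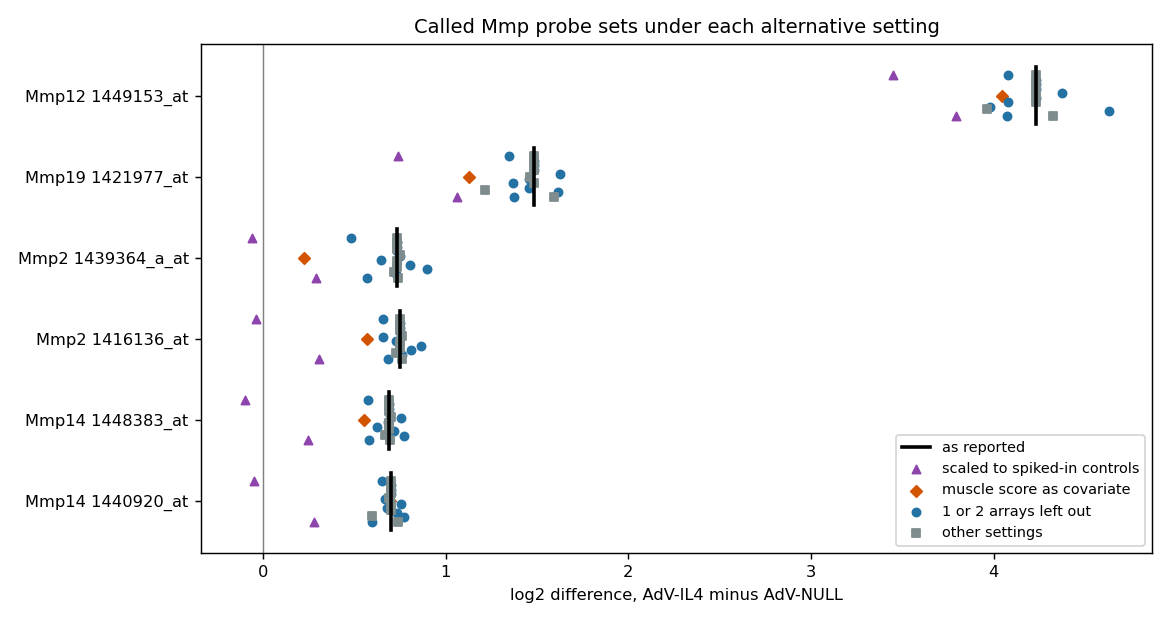
Log2 difference, AdV-IL4 minus AdV-NULL (horizontal axis), of the 6 called probe sets (vertical axis) as reported (black bars) and under each alternative setting (points, by kind of setting). Mmp12 stays between 3.45 and 4.63, and the Mmp2 and Mmp14 values fall to about 0 when arrays are scaled to poly-A controls.

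Other genes of matrix proteolysis were counted in 6 lists. Over all 11984 tested genes, 13% were called for AdV-IL4 against AdV-NULL. The share was 1.26% for AdV-IL4d2 against AdV-NULL and 2.24% for AdV-IL4 against AdV-IL4d2. Of 17 other Mmp and Timp genes 12 were on the array and 4 were tested, and with AdV-IL4 0 were higher and 1 lower than with AdV-NULL. This was Mmp11, stromelysin 3, at 309 ± 40.4 in AdV-IL4 and 497 ± 28.1 in AdV-NULL lungs, a log2 difference of -0.66 ± 0.13 (limma adjusted p = 0.00745), and without AdV-NULL mouse 1 and AdV-IL4 mouse 2 it was -0.59 and not called (limma adjusted p = 0.0730). The list median was -0.13. None of the 4 was called by limma with AdV-IL4d2 against AdV-NULL or between the cytokine forms (1 in each comparison at an unadjusted p under 0.05), and Mmp23, the brightest, gave 0.13 ± 0.20 with AdV-IL4d2 (limma adjusted p = 0.817).

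The ADAM and ADAMTS proteases, which shed surface proteins and cut proteoglycans, had 20 tested genes. With AdV-IL4 5 were higher and 1 lower, at a background of 13% of genes called, with a list median of 0.26 against -0.018 over all genes. Adamts12 averaged 227 ± 18.6 in AdV-IL4 and 95.5 ± 31.1 in AdV-NULL lungs, a log2 difference of 1.16 ± 0.26 (limma adjusted p = 0.0162). It exceeded the array median on its 3 AdV-IL4 arrays alone, so it was tested because of the group in which it was high. Adamtsl2, a matrix protein without protease activity, differed by 0.80 ± 0.17 (limma adjusted p = 0.0125) and Adam17, the sheddase of tumour necrosis factor, by 0.59 ± 0.14 (limma adjusted p = 0.0201). Without AdV-NULL mouse 1 and AdV-IL4 mouse 2, 1 was higher and 1 lower, against 575 higher and 493 lower of all 23824 tested probe sets. None of these 3 genes was called there, with limma adjusted p of 0.0896 for Adamts12, 0.0999 for Adamtsl2 and 0.162 for Adam17. With AdV-IL4d2 against AdV-NULL, and between the forms, 0 of 20 were called by limma (3 and 6 at an unadjusted p under 0.05), and Adam10, the brightest of the list, differed by 0.30 ± 0.07 between AdV-IL4 and AdV-IL4d2 (limma adjusted p = 0.0679).

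Among 12 tested activators and regulators of matrix proteolysis, 2 were higher and 1 lower with AdV-IL4 than with AdV-NULL, with a list median of 0.16. The background was 13% of genes called. Lcn2, the lipocalin that binds and stabilises MMP-9 in humans, averaged 9495 ± 922 in AdV-IL4 and 4920 ± 2171 in AdV-NULL lungs, a log2 difference of 1.03 ± 0.23 (limma adjusted p = 0.0148). Cd44, the hyaluronan receptor, differed by 0.51 ± 0.12 (limma adjusted p = 0.0169). Serpinf1, a serpin without inhibitory activity, was lower, at -0.96 ± 0.21 (limma adjusted p = 0.0135). Without the 2 mice with outlying muscle signals 0 were higher and 1 lower, against 575 higher and 493 lower of all 23824 tested probe sets. Lcn2, Cd44 and Serpinf1 were not called there (limma adjusted p = 0.110, 0.0847 and 0.0820). With AdV-IL4d2, or between the forms, none of the 12 was called by limma (1 and 6 at an unadjusted p under 0.05). Of 3 tested serine elastases and inhibitors, Slpi, the secretory leukocyte peptidase inhibitor, was higher with AdV-IL4, at 1.28 ± 0.37 (limma adjusted p = 0.0443), and with AdV-IL4d2 its difference of 1.51 ± 0.37 was not called (limma adjusted p = 0.0708). Without those 2 mice the Slpi difference with AdV-IL4 was 0.73 and not called (limma adjusted p = 0.284). Elane, Prtn3 and Ctsg, the neutrophil serine proteases, lay below the median of every array.

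**Figure D5:**
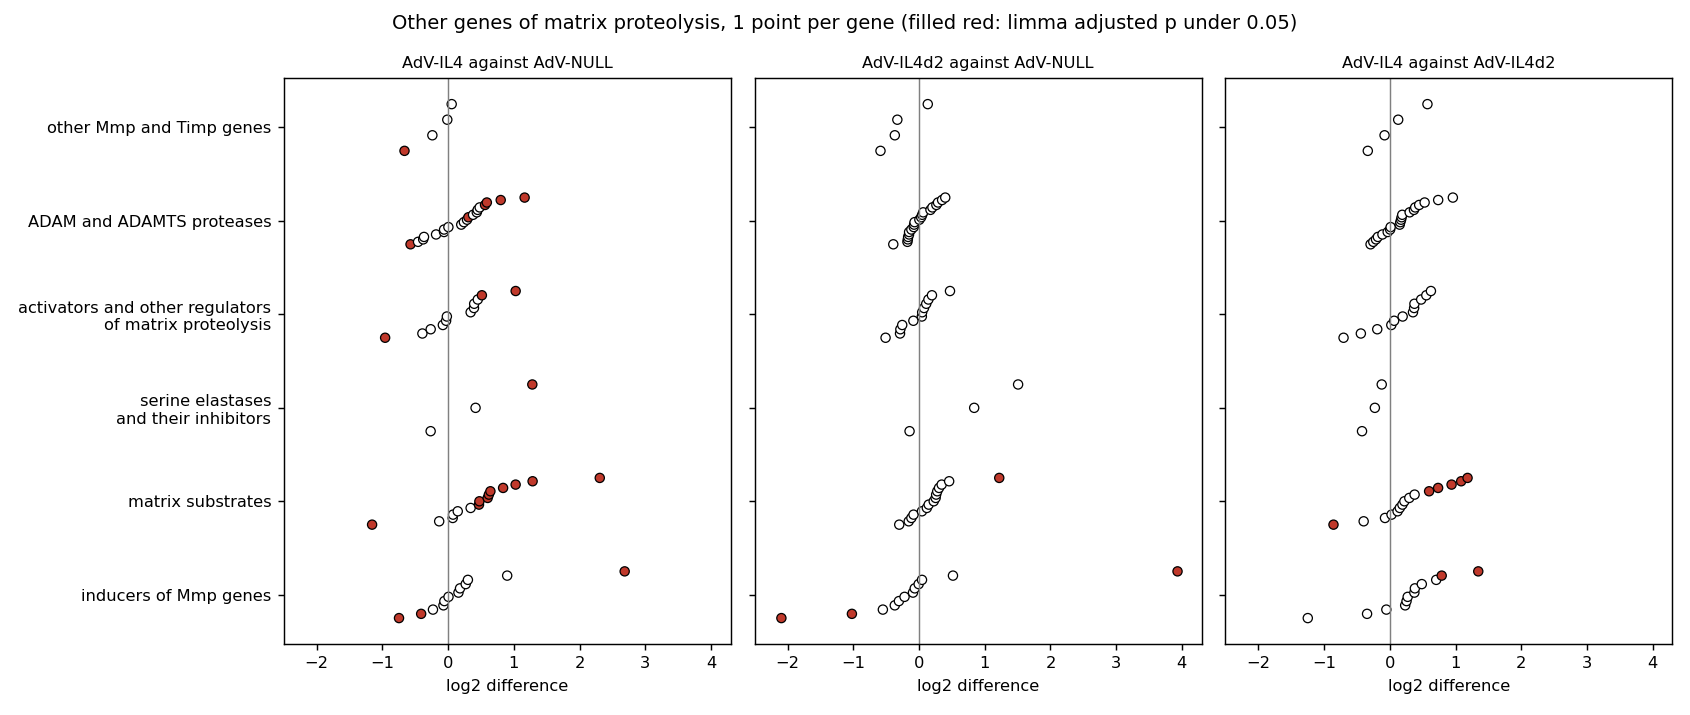
Log2 difference (horizontal axis) of each tested gene of 6 lists (vertical axis) for AdV-IL4 against AdV-NULL, AdV-IL4d2 against AdV-NULL and AdV-IL4 against AdV-IL4d2, with filled points for called genes. With AdV-IL4 against AdV-NULL the matrix substrates hold 9 higher and 1 lower of 15 and the ADAM and ADAMTS proteases 5 higher and 1 lower of 20, and the rightmost inducer in the first and second panels is Il4, which the viruses carried. Of all tested genes 13% were called for AdV-IL4 against AdV-NULL.

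The matrix proteins that these enzymes cut were counted next. Of 15 tested substrates, 9 were higher and 1 lower with AdV-IL4 than with AdV-NULL, with a list median of 0.47. The background was 13% of genes called. Eln, elastin and the substrate of macrophage elastase, averaged 4512 ± 96.3 in AdV-IL4, 2123 ± 190 in AdV-IL4d2 and 915 ± 209 in AdV-NULL lungs. Its log2 differences were 2.31 ± 0.14 for AdV-IL4 against AdV-NULL (limma adjusted p = 3.28e-06), 1.22 ± 0.14 for AdV-IL4d2 against AdV-NULL (limma adjusted p = 0.000650) and 1.09 ± 0.14 for AdV-IL4 against AdV-IL4d2 (limma adjusted p = 0.00299). Eln was thus intermediate with AdV-IL4d2, where Mmp12 was not called.

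Col1a1, the type I collagen alpha 1 chain, averaged 1823 ± 93.7 in AdV-IL4 and 743 ± 98.4 in AdV-NULL lungs, a log2 difference of 1.28 ± 0.14 (limma adjusted p = 0.000245). Dcn, decorin, which binds collagen fibrils, was the substrate that was lower, with 2579 ± 268 in AdV-IL4 and 5760 ± 378 in AdV-NULL lungs (limma adjusted p = 8.40e-05). Without AdV-NULL mouse 1 and AdV-IL4 mouse 2, 6 of 15 were higher and 1 lower with AdV-IL4 than with AdV-NULL. In that fit 575 of all 23824 tested probe sets were higher and 493 lower. Eln was the 1 substrate called with AdV-IL4d2 against AdV-NULL. Between AdV-IL4 and AdV-IL4d2, 5 were higher and 1 lower, at a background of 2.24% of genes called. Among the higher were Tnc, tenascin C, at 1.18 ± 0.13 (limma adjusted p = 0.00144) and Col1a1 at 0.94 ± 0.14 (limma adjusted p = 0.00670).

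Fibroblast markers stand beside Mmp2, Mmp14, the inhibitors and the collagens. Of 7 tested markers, 0 were higher and 2 lower with AdV-IL4 than with AdV-NULL, Dcn and Lum, with Lum, another collagen-binding proteoglycan, at -0.83 ± 0.20 (limma adjusted p = 0.0206). Of all tested genes 13% were called in this comparison. The summed signal of the 7 tested fibroblast markers was 24459 to 27872 in AdV-IL4, 26270 to 30530 in AdV-IL4d2 and 27733 to 29415 in AdV-NULL lungs. Of 5 smooth muscle markers, 4 were lower with AdV-IL4, at 5562 to 10506 in AdV-IL4, 7504 to 13260 in AdV-IL4d2 and 17238 to 20164 in AdV-NULL lungs by summed signal. Without AdV-NULL mouse 1 and AdV-IL4 mouse 2, 3 smooth muscle markers were lower with AdV-IL4 and 2 with AdV-IL4d2. Of all 23824 tested probe sets, that fit called 575 higher and 493 lower with AdV-IL4 against AdV-NULL. It called 147 higher and 53 lower with AdV-IL4d2 against AdV-NULL. The part of these cells in the results was not tested. Of the other marker lists, with AdV-IL4 against AdV-NULL 8 of 10 striated muscle markers were lower, 2 of 4 tested T and B cell markers were higher, 1 of 5 endothelial markers was higher and 2 lower, 1 of 5 alveolar epithelial markers was lower, and 0 of 4 airway epithelial and 0 of 2 monocyte markers were called by limma (2 and 0 at an unadjusted p under 0.05). Without AdV-NULL mouse 1 and AdV-IL4 mouse 2, 1 striated muscle marker was lower, 1 T and B cell marker was higher, and 0 endothelial markers were higher and 2 lower by limma. The 4 eosinophil markers on the array all lay below the median of every array. With AdV-IL4d2 against AdV-NULL, 1 T and B cell marker was higher and no other marker of the 11 lists was called, and without those 2 mice that T and B cell call ended.

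Of 12 tested inducers of metalloproteinase genes, Il4 was the 1 higher with AdV-IL4 than with AdV-NULL and with AdV-IL4d2 than with AdV-NULL. The cytokine viruses carried forms of this gene, but its probe set cannot tell the transgenes from the mouse gene. Fos is a subunit of the AP-1 factor whose letters are marked in the downstream Mmp12 window and the Mmp3 window. Fos averaged 3529 ± 452 in AdV-IL4, 1375 ± 129 in AdV-IL4d2 and 5971 ± 1067 in AdV-NULL lungs. It was lower than in AdV-NULL, with log2 differences of -0.75 ± 0.14 with AdV-IL4 (limma adjusted p = 0.00528) and -2.09 ± 0.14 with AdV-IL4d2 (limma adjusted p = 1.21e-05). Junb, another AP-1 subunit, was lower with AdV-IL4d2, at -1.02 ± 0.15 (limma adjusted p = 0.00513), and Ets2, a transcription factor, was lower with AdV-IL4, at -0.41 ± 0.10 (limma adjusted p = 0.0220). The Ets2 call ended without AdV-NULL mouse 1 and AdV-IL4 mouse 2 (-0.48, limma adjusted p = 0.0530) and without AdV-NULL mouse 1, AdV-NULL mouse 3 or AdV-IL4 mouse 1 alone (limma adjusted p = 0.0620, 0.0798 and 0.0609). Between AdV-IL4 and AdV-IL4d2, Fos differed by 1.35 ± 0.14 (limma adjusted p = 0.000730) and Junb by 0.79 ± 0.15 (limma adjusted p = 0.0250), and Junb lost that call without AdV-NULL mouse 1 and AdV-IL4 mouse 2 (0.78, limma adjusted p = 0.0538) and was called in 4 of 9 fits with 1 array left out. Tnf, Il6, Il13 and Il17a lay below the median of every array.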

How the data were processed

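Lung RNA of 9 mice was measured on 9 Affymetrix arrays, and the authors deposited 1 linear signal intensity per probe set and array. Per the submitters' processing notes, the tools were MAS5, GCOS and Affymetrix Expression Console 2.0, with no role given; other steps are not given in the sources used here. From the values, the 2% trimmed mean was 500.002 on each array, which hides any shift common to most genes. Detection calls were not used here, and the number of arrays limits the precision.

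Probe sets above their array's median on at least 3 of 9 arrays were tested on log2(signal + 16), with 64 control probe sets left out. All 9 arrays entered 1 limma 3.58.1 fit (lmFit, eBayes with trend, R 4.3.3), two-sided, with 6 residual degrees of freedom and 3 contrasts. Folds are taken on that same scale and are too small for dim probe sets. An error given with a log2 difference is an SE, and with a signal an SD. A gene of several probe sets stands for its brightest tested one in counts by gene. The p-values rest on 3 mice per group.

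Of the probe sets, 34958 had 1 symbol, 932 several and 9211 none, and none with several was used. Promoters and gene order come from RefSeq, GRCm38.p6. The named genes were all members, up to 3 called genes per list and comparison with the largest differences or else the brightest, the chromosome 9 neighbours, the 5 genes most like Mmp12 and Timp1, and Il4. A few genes outside that rule (untested proteases and cytokines, and untested neutrophil markers) are named only as below the median. The members and the 17 lists, of whose 179 genes 21 had no probe set, were chosen with earlier results of these data known. Alternatives covered the offset, filter, normalization, scaling, model and arrays left out. The fit was tested on simulated data.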

Additional observations from a re-analysis of the deposited data

Results flagged for a closer look

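For 3 probe sets the effects of the cytokine viruses differed from each other by the direct test of AdV-IL4 against AdV-IL4d2. Mmp12 differed by 3.89 on the log2 scale, Mmp19 by 1.71 and the brightest Mmp14 probe set by 0.71, all higher in AdV-IL4 with signals as deposited. The Mmp19 probe set exceeded the array median on its AdV-IL4 arrays alone, so it was tested because of the group in which it was high. The Mmp14 value was -0.36 when arrays were scaled to poly-A controls (limma adjusted p = 0.152) and 0.18 when scaled to hybridisation controls (limma adjusted p = 0.455), and it was 0.70 and not called without AdV-IL4d2 mouse 3 (limma adjusted p = 0.0518). In each case the 3 AdV-IL4 lungs lay above the 3 AdV-IL4d2 lungs. Groups of 3 mice are too small for a test of single outlying mice.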

How the results depend on the processing

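The count of called member probe sets was 6, 1 and 3 for AdV-IL4 against AdV-NULL, AdV-IL4d2 against AdV-NULL and AdV-IL4 against AdV-IL4d2, and leaving out each array in turn gave 5 to 6, 1 to 2 and 2 to 3. Over all probe sets the counts of 2546, 314 and 416 became 1313 to 2210, 156 to 417 and 110 to 446 with 1 array left out, the lowest without AdV-NULL mouse 1, AdV-IL4d2 mouse 3 and AdV-IL4d2 mouse 3. Without both AdV-NULL mouse 1 and AdV-IL4 mouse 2 they were 1068, 200 and 237. With the muscle score as a covariate they were 235, 149 and 177, with 1, 0 and 3 member probe sets. The score differs between the groups, so that fit also removes group differences. Scaling to hybridisation controls gave 7451 and 11163 calls for AdV-IL4 against AdV-NULL and against AdV-IL4d2 (10 and 12 of the members), of which 7156 and 11074 were lower in AdV-IL4 (8 and 10 of the members). Scaling to poly-A controls gave 18123, 519 and 22503 in the 3 comparisons (14, 2 and 17 of the members), of which 17971, 50 and 22470 were lower (12, 0 and 15 of the members), since these scales shift the median probe set. eBayes without trend gave 195 calls for AdV-IL4d2 against AdV-NULL and 165 for AdV-IL4 against AdV-IL4d2, and no filter gave 244 for AdV-IL4 against AdV-IL4d2. Asking for signals above the median on all 9 arrays called 2 member probe sets for AdV-IL4d2 against AdV-NULL, both of Mmp2, and 1 for AdV-IL4 against AdV-IL4d2, since Mmp12 and Mmp19 did not pass that filter.

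Among differences called on the deposited scale, the sign turned for Adam10 on the hybridisation scale (-0.14, AdV-IL4 against AdV-NULL). On the poly-A scale it turned in the same comparison for Mmp2 (-0.061 and -0.039), Mmp14 (-0.10 and -0.051), Adam17 (-0.20), Adam10 (-0.49) and Cd44 (-0.28), and for AdV-IL4 against AdV-IL4d2 in Mmp14 (-0.36), Col1a1 (-0.13), Junb (-0.25) and Psap (-0.11). Differences not called on the deposited scale changed sign too, such as Timp1 with AdV-IL4 against AdV-NULL (-0.052 on the hybridisation scale). Between AdV-IL4 and AdV-IL4d2, the second Mmp14 probe set (-0.67, limma adjusted p = 0.0218) and the first of Mmp2 (-0.99, limma adjusted p = 0.000107) turned on the poly-A scale and were called lower. Mmp12 was called against AdV-NULL and against AdV-IL4d2 in AdV-IL4 lungs in each of the 20 alternatives that tested it.

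The mouse numbers were tried as a replicate block. Same-numbered mice of different groups showed correlations of -0.069 to 0.12 in their deviations, and in 5 of 9 pairs the best match had the same number. Those 5 included each pair of AdV-IL4 with AdV-IL4d2 mice, at correlations of 0.116, 0.102 and 0.0707. With correlations this low the numbers were not taken to pair mice. The block left 6, 1 and 3 member probe sets called, and 2427, 312 and 384 of all.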
